A study of Mus musculus with 18 samples.

Results

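Deep-layer neuron identity genes were followed in E15.5 mouse cortices in which the RNA demethylase Fto or the RNA methyltransferase Mettl3 had been deleted. The set holds 10 genes: Tbr1, Bcl11b, Fezf2, Sox5, Tle4, Foxp2, Crym, Ldb2, Zfpm2 and Nr4a2. They were chosen by name, with their RNA-seq and Ribo-seq differences between each knockout and the control already known, so the values of those comparisons, and the calls made on them, are given as a description. All 10 were found among the 55153 genes of the RNA-seq table and among the 14348 genes that have counts in all 9 libraries of the Ribo-seq table, which lists 54838 genes. Control cortices (Ctrl) were wild type, F-cKO cortices carried floxed Fto alleles (Fto f/f) with Emx1-cre, and M-cKO cortices carried floxed Mettl3 alleles (Mettl3 f/f) with Emx1-cre. All embryos are labelled as strain C57BL/6, while the methods of the study describe the floxed mice as of mixed background. The Cre is driven by the Emx1 promoter, so cells of the dissected tissue that do not come from the Emx1 lineage, such as interneurons and blood vessels, keep the targeted gene. Each genotype had 3 RNA-seq and 3 Ribo-seq libraries, 18 in all.

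Deep-layer neurons are the projection neurons of layers V and VI and are born before those of the upper layers. Layer VI neurons send axons mainly to the thalamus and layer V neurons to the brainstem and spinal cord, and a small group of transcription factors that repress or activate each other sets which of these fates a neuron takes. Ribo-seq sequences the ribosome-protected fragments (RPFs) of mRNAs, so that a gene measured by RNA-seq and Ribo-seq has both an RNA level and a footprint level, and the ratio of footprints to RNA is called translational efficiency (TE).

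The RNA-seq libraries held 18504094 to 22592406 counts and the Ribo-seq libraries 10973699 to 35853227. Counts per library for these genes ran from 351 to 10780 in RNA-seq and from 253 to 20920 in Ribo-seq. The targeted Fto was at 8.37 to 11.2 FPKM (fragments scaled to gene length and sequencing depth) in Ctrl RNA-seq, and at 3.26, 7.56 and 2.43 FPKM in F-cKO replicates 1, 2 and 3. Replicate 2 lay close to the lowest Ctrl library, so the loss of Fto is less clear in that RNA-seq library than in the others. Counts of calls among the 10 genes are also given without it, while those of the marker lists are given only with it. In Ribo-seq Fto was at 17.6 to 25.9 RPKM (reads scaled in the same way) in Ctrl and at 2.11 to 4.04 in F-cKO. Mettl3 RNA was higher in M-cKO, at 7.82 to 8.61 FPKM against 5.07 to 6.43 in Ctrl, and its footprints were lower, at 6.02 to 6.78 RPKM against 9.16 to 9.93. The deletion removes exons of Mettl3, and a count over the whole gene does not show whether they are absent. In Ribo-seq, the F-cKO libraries did not resemble each other. Replicate 3 lay about as close to the Ctrl mean as the Ctrl libraries themselves, with an SD over genes of the log2 difference of 0.278 against 0.225 to 0.261, while replicate 1 was at 0.652 and replicate 2, the least deeply sequenced, at 1.16. Summed markers of vessels and meninges were at 121 RPKM in F-cKO replicate 2 and at 7.04 to 27.6 in the other 8 Ribo-seq libraries. That library stood apart in other lists too. Summed subplate markers were at 31.1 RPKM there and at 7.66 to 11.3 in the other 8. General neuronal markers were at 1999 RPKM there and at 3684 to 4833 in the other 8. In RNA-seq of this tissue, labelled as cortex, general neuronal markers summed to 2345 to 2545 FPKM in Ctrl, 2298 to 2437 in M-cKO and, wholly below Ctrl, 2057 to 2263 in F-cKO. Thalamic markers summed to 3.06 to 4.18 FPKM in Ctrl and were above that in every knockout library, with 5.74 to 6.52 for F-cKO and 5.72 to 8.08 for M-cKO.

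Promoters of 6 of the 10 genes were held by the RefSeq table for GRCm38.p6, each running from 250 bases before a transcription start to 50 after it. Those of Foxp2, Crym, Ldb2 and Zfpm2 were not analysed here. The sequences below are of Tbr1, Bcl11b, Fezf2 and Sox5, 4 genes whose RNA was higher in both knockouts, and of Nr4a2, whose RNA was lower in both. Capitals mark matches on either strand to any of 5 short motifs. The first is the TATA box, spelled TATAAA, the next is the box named for its letters CCAAT, and another is the GC box, spelled GGGCGG. The others are a motif of SOX factors, spelled AACAAT, and a core bound by homeodomain factors, spelled TAATTA. A T-box motif, spelled GGTGTGA, and an E-box, spelled CAGATG, were also searched and had no match in these 5 windows.

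Tbr1 (chr2:61804203-61804502, + strand): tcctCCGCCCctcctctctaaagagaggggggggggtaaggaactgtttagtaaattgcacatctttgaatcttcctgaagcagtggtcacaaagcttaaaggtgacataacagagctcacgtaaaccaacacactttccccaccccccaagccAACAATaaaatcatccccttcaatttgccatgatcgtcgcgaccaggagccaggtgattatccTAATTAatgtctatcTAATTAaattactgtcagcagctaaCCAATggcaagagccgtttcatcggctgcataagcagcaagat
Bcl11b (chr12:108003365-108003664, - strand): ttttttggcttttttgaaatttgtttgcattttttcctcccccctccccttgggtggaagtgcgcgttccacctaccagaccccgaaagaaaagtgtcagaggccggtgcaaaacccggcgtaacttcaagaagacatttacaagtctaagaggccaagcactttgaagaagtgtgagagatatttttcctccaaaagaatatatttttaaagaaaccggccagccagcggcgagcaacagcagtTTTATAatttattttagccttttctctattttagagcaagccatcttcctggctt
Fezf2 (chr14:12345816-12346115, - strand): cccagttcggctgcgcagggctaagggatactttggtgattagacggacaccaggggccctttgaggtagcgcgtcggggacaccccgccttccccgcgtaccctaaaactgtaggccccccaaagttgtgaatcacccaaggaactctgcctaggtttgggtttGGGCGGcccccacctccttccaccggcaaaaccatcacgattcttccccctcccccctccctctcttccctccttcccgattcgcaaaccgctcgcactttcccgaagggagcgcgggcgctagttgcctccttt
Sox5 (chr6:143947057-143947356, - strand): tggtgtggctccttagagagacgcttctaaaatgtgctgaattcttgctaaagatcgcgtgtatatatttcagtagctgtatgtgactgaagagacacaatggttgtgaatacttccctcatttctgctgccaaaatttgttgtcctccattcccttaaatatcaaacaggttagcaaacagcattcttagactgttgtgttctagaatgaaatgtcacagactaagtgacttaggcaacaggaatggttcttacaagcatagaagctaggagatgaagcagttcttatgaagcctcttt
Nr4a2 (chr2:57123954-57124253, - strand): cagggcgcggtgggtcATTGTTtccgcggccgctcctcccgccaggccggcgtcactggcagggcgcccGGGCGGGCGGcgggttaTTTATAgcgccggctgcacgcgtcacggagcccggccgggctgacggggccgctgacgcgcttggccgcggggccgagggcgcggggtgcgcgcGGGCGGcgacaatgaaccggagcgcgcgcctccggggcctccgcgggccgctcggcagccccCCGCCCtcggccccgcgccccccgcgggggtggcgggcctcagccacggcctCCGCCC

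The promoters differ in base composition. GC content was 46% for Tbr1, 43% for Bcl11b, 61.3% for Fezf2, 39.7% for Sox5 and 81.7% for Nr4a2, against a median of 52.7% over 32851 promoters of the same length. The Tbr1 window held TAATTA at 2 places, a motif found in 5.29% of all windows, and AACAAT at 1 place, found in 10.7%. The windows of Tbr1, Bcl11b, Fezf2 and Sox5 lie inside the annotated gene spans, which reach further upstream, by most in Sox5 with its span of 953863 bases, while that of Nr4a2 runs past the outer end of the gene. The Sox5 window held none of the motifs. The Nr4a2 window held 5 GC boxes, a motif present in 35.7% of all windows and at 1 place in Tbr1 and in Fezf2, and both it and Bcl11b held TATAAA, present in 13.6%. CCAAT, found in 37.4% of all windows, was in Tbr1. GGTGTGA was present in 3.98% of all windows and CAGATG in 17.2%. A match says only that the letters are there.

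In Ctrl cortices the 10 genes spanned a wide range of levels. Fezf2 had the highest RNA level, at 60.1 ± 5.90 FPKM (SD, n = 3), followed by Tbr1 at 42.4 ± 2.02 and Bcl11b at 29.8 ± 2.83. Crym, Tle4 and Ldb2 came next, between 23.2 and 25.6 FPKM, and the ranges of Bcl11b, Crym, Tle4 and Ldb2 overlapped from each to the next. Nr4a2 at 16.2 ± 2.81 and Sox5 at 12.1 ± 1.93 FPKM overlapped as well, and Zfpm2 at 3.57 ± 0.312 and Foxp2 at 1.10 ± 0.0908 stood below them. Footprint levels gave another order. Tbr1 was highest at 123 ± 6.25 RPKM, followed by Crym at 59.3 ± 6.22 and Ldb2 at 43.5 ± 5.02, while Fezf2 came below these and Tle4, at 30.4 ± 0.950, and Foxp2 was again lowest at 1.10 ± 0.156. Among the neighbours in the Ribo-seq order, the ranges of Bcl11b and Nr4a2 overlapped, as did those of Zfpm2 and Sox5. Levels in both assays are per length, and the lengths that the authors used may differ between the assays, which bears on the order between assays but not on the comparison of genotypes.

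**Figure D1:**
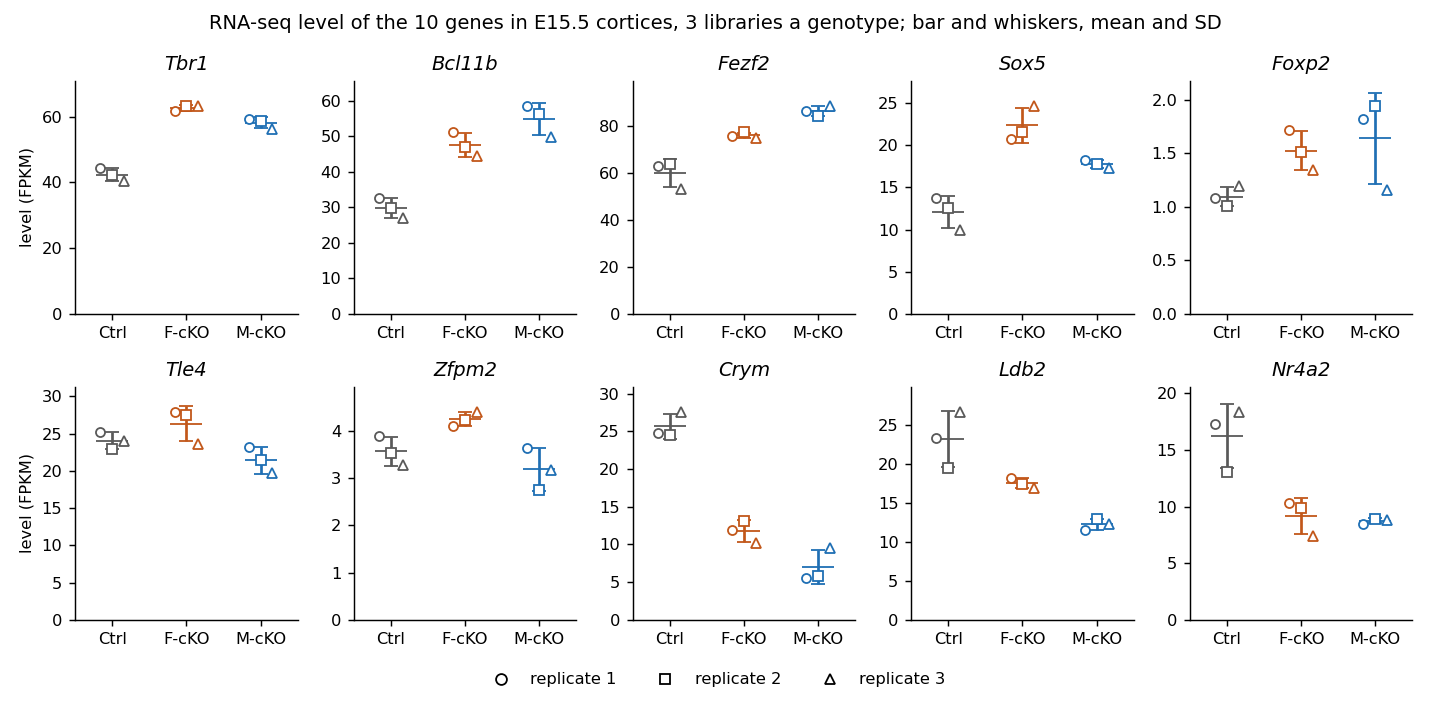
RNA-seq level of each of the 10 genes in FPKM (vertical axis from 0) for Ctrl, F-cKO and M-cKO, with 1 symbol per library and the mean and SD of 3 libraries as a bar with whiskers. Tbr1, Bcl11b, Fezf2 and Sox5 lie above Ctrl in every F-cKO and M-cKO library, and Crym, Ldb2 and Nr4a2 lie below Ctrl in every one. By counts scaled to library size, 21.8% of 17376 genes had all F-cKO libraries above all Ctrl libraries and 19.1% had all below. The shares for M-cKO were 22.9% and 21.4%, so such separation was common.

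The question for RNA was which of these genes changed in each knockout compared to Ctrl. In F-cKO, 5 of the 10 were called higher (Tbr1, Bcl11b, Fezf2, Sox5 and Foxp2) and 3 lower (Crym, Ldb2 and Nr4a2) at an adjusted p below 0.05 in the edgeR quasi-likelihood fit of all 16944 genes tested. Without F-cKO replicate 2, whose Fto RNA was close to Ctrl, the count of 8 fell to 5, with 3 higher and 2 lower, as Fezf2, Foxp2 and Ldb2 were lost. Of all genes tested, 11.5% were called higher and 9.57% lower. In M-cKO, the same 5 were called higher and the same 3 lower, where 15.5% of 16968 genes were called higher and 14.1% lower. The list was drawn up with these differences known, so nothing is read from these shares, and the comparisons share their 3 Ctrl libraries. Over the 10 genes the median log2 fold change was 0.29 for F-cKO and 0.14 for M-cKO, against -0.01 over all genes tested in each. These are bulk cortices, in which more or fewer cells of a type and more or less RNA per cell cannot be told apart.

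Tbr1 (ENSMUSG00000035033, chr2:61802863-61814114) encodes a T-box factor that is required for layer VI identity. Its RNA was at 44.4, 42.4 and 40.4 FPKM in Ctrl, 61.6, 63.3 and 63.2 in F-cKO and 59.4, 58.8 and 56.3 in M-cKO. Every knockout library was above every Ctrl library, and both knockouts had an SD below 2 FPKM. The rise was 1.47-fold in F-cKO (log2 fold change 0.55 ± 0.06, SE) and 1.36-fold in M-cKO (0.45 ± 0.06), and both calls held without any single library. By antibody staining, which detects protein in counted cells, the study reported fewer Tbr1-positive cells in M-cKO than in control cortices at E15.5. How that count relates to the RNA level was not tested.

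Fezf2 (ENSMUSG00000021743, chr14:12338992-12346803) encodes a zinc finger factor that directs layer V neurons to subcerebral targets. Its RNA was at 63.0, 64.0 and 53.3 FPKM in Ctrl, 76.0, 77.4 and 75.2 in F-cKO and 86.6, 84.4 and 88.7 in M-cKO. The 3 genotypes did not overlap, and M-cKO was the highest. The log2 fold change was 0.33 ± 0.07 for F-cKO and 0.52 ± 0.07 for M-cKO. The F-cKO call was lost without F-cKO replicate 2 (Benjamini-Hochberg adjusted p = 0.0521 in the edgeR quasi-likelihood test, log2 fold change 0.32).

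Bcl11b (ENSMUSG00000048251, chr12:107910403-108004145), also known as Ctip2, encodes a zinc finger factor that acts after Fezf2 in subcerebral neurons of layer V and is also made by striatal neurons. Its RNA was at 32.5, 29.9 and 26.9 FPKM in Ctrl, 51.1, 47.1 and 44.5 in F-cKO and 58.6, 56.3 and 49.7 in M-cKO. No knockout library reached down to Ctrl. The log2 fold change was 0.67 ± 0.08 for F-cKO and 0.87 ± 0.08 for M-cKO, and both calls held without any single library. Foxp2 (ENSMUSG00000029563, chr6:14901349-15441977), a forkhead factor of layer VI that striatal neurons also make, was the lowest of the 10 genes, at 1.08, 1.01 and 1.19 FPKM in Ctrl, 1.72, 1.52 and 1.35 in F-cKO and 1.82, 1.94 and 1.16 in M-cKO. M-cKO replicate 3 lay within the Ctrl range and the other 5 knockout libraries above it. The log2 fold change was 0.47 ± 0.11 for F-cKO and 0.57 ± 0.17 for M-cKO. By the edgeR quasi-likelihood test, its F-cKO call was lost (Benjamini-Hochberg adjusted p = 0.0547, 0.0559 and 0.0553) without Ctrl replicate 1, Ctrl replicate 2 or F-cKO replicate 2, where the log2 fold change was 0.46, 0.41 and 0.47. It was also lost with all 9 RNA-seq libraries in the edgeR fit (Benjamini-Hochberg adjusted p = 0.0561, log2 fold change 0.48). Its M-cKO call was lost in the same test (Benjamini-Hochberg adjusted p = 0.0706, 0.0539, 0.0680 and 0.102) without Ctrl replicate 1, Ctrl replicate 2, M-cKO replicate 1 or M-cKO replicate 2, where it was 0.56, 0.53, 0.50 and 0.44.

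Markers of the striatum and ganglionic eminence moved in the same libraries. Of 18 such markers, 8 were called higher and 0 lower in F-cKO RNA-seq, and 16 higher and 1 lower in M-cKO, with a median log2 fold change of 0.51 and 1.08. Of all genes tested, 11.5% were called higher and 9.57% lower in F-cKO, and 15.5% and 14.1% in M-cKO, and the list was drawn up with these differences known. The smallest adjusted p in both was that of Six3, at 1.82 ± 0.27 for F-cKO and 2.5 ± 0.25 for M-cKO, with Dlx2, at 0.48 ± 0.13 and 1.11 ± 0.11, also called in both. Their summed level was 117 to 120 FPKM in Ctrl. It was 170, 141 and 125 FPKM in F-cKO replicates 1, 2 and 3, the same order of libraries as for Bcl11b and Foxp2, and 218, 212 and 161 in M-cKO, whose replicate 3 was also the lowest in Bcl11b and Foxp2. These orders do not single out Bcl11b and Foxp2. The F-cKO order was also that of Tle4, Ldb2 and Nr4a2 and of the summed upper-layer and general neuronal markers. In M-cKO, replicate 3 was the lowest for Tbr1, Sox5 and Tle4 as well. None of the 18 was at 0 in any library. The part of striatal tissue or cells in the Bcl11b and Foxp2 values was not tested.

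Sox5 (ENSMUSG00000041540, chr6:143828425-144782287) encodes an SRY-box factor that times the birth of deep-layer neurons and holds back Fezf2 and Bcl11b in layer VI and subplate cells. Sox5 RNA was at 13.8, 12.6 and 9.98 FPKM in Ctrl, 20.8, 21.6 and 24.7 in F-cKO and 18.3, 17.8 and 17.3 in M-cKO. F-cKO lay above M-cKO and M-cKO above Ctrl without overlap. The log2 fold change was 0.88 ± 0.11 in F-cKO, the largest rise among the 10 genes there, and 0.55 ± 0.10 in M-cKO.

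Tle4 (ENSMUSG00000024642, chr19:14448072-14598183), a Groucho-family corepressor enriched in corticothalamic neurons, was not called in either knockout. Its RNA was at 25.2, 23.0 and 24.0 FPKM in Ctrl, 27.9, 27.5 and 23.6 in F-cKO and 23.2, 21.4 and 19.7 in M-cKO. The ranges overlapped with Ctrl, and the log2 fold change was 0.12 ± 0.07 for F-cKO and -0.18 ± 0.07 for M-cKO. Zfpm2 (ENSMUSG00000022306, chr15:40655042-41104592), also known as Fog2, is a zinc finger cofactor of GATA factors that is made in layer VI neurons. Zfpm2 RNA was at 3.90, 3.54 and 3.28 FPKM in Ctrl, 4.11, 4.25 and 4.40 in F-cKO and 3.65, 2.75 and 3.17 in M-cKO. All F-cKO libraries were above Ctrl, yet the log2 fold change of 0.24 ± 0.08 did not pass (Benjamini-Hochberg adjusted p = 0.0628 in the edgeR quasi-likelihood test). It passed only without Ctrl replicate 1 (adjusted p = 0.0460 in the same edgeR test, log2 fold change 0.31). M-cKO was at -0.17 ± 0.11 and overlapped with Ctrl.

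Crym, Ldb2 and Nr4a2 had lower RNA in both knockouts. Crym (ENSMUSG00000030905, chr7:120186380-120201989) encodes mu-crystallin, a thyroid hormone-binding protein of the cytosol that marks corticospinal neurons of layer V. Crym RNA was at 24.8, 24.6 and 27.5 FPKM in Ctrl, 11.9, 13.1 and 10.2 in F-cKO and 5.60, 5.83 and 9.56 in M-cKO. The 3 genotypes were fully apart, with M-cKO the lowest. The mean of F-cKO was 45.8% of Ctrl and that of M-cKO 27.3%, with a log2 fold change of -1.14 ± 0.09 and -1.88 ± 0.16, the largest differences from Ctrl among the 10 genes in either knockout. Ldb2 (ENSMUSG00000039706, chr5:44435955-44799759), a LIM-domain-binding adaptor of transcription complexes found in layer V subcerebral neurons, was at 23.3, 19.5 and 26.6 FPKM in Ctrl, 18.2, 17.5 and 16.9 in F-cKO and 11.5, 12.9 and 12.4 in M-cKO. Its levels were apart in the same order, Ctrl above F-cKO above M-cKO. The log2 fold change was -0.41 ± 0.10 for F-cKO and -0.93 ± 0.10 for M-cKO. The F-cKO call was lost without Ctrl replicate 1, Ctrl replicate 3 or F-cKO replicate 2 (Benjamini-Hochberg adjusted p = 0.0607, 0.0604 and 0.0661 in the edgeR quasi-likelihood test), where the log2 fold change was -0.40, -0.30 and -0.41.

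Nr4a2 (ENSMUSG00000026826, chr2:57106830-57124003) encodes an orphan nuclear receptor, also called Nurr1, that marks the subplate and part of layer VI. Its RNA was at 17.3, 13.0 and 18.3 FPKM in Ctrl, 10.3, 9.85 and 7.39 in F-cKO and 8.48, 8.93 and 8.86 in M-cKO. Both knockouts were below Ctrl without overlap, and F-cKO and M-cKO overlapped with each other. The log2 fold change was -0.83 ± 0.15 for F-cKO and -0.90 ± 0.11 for M-cKO. A predicted protein-coding gene, LOC105244150, overlaps the start of Nr4a2 in the RefSeq annotation, and reads of the shared stretch cannot be assigned to one of them without strand, whose use in counting is not given in the sources used here.

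Other genes of the deep layers did not all move with the list. Of 8 further layer VI corticothalamic markers, 1 was called higher and 3 lower in F-cKO, and 2 higher and 2 lower in M-cKO. Beside this and the next lists, 11.5% of all genes tested were called higher and 9.57% lower in F-cKO, and 15.5% and 14.1% in M-cKO. Ntsr1, a neurotensin receptor gene of layer VI, was called lower in both, at -1.0 ± 0.14 and -1.03 ± 0.13 on the log2 scale, and Hs3st4 was at -0.34 ± 0.07 and -0.55 ± 0.08. Grik3, a kainate receptor gene, was called higher in both, at 0.37 ± 0.06 and 0.19 ± 0.06, and Sulf1 in M-cKO, at 0.97 ± 0.30. Of 8 layer V subcerebral markers, 1 was called higher and 2 lower in F-cKO and 3 higher and 2 lower in M-cKO. S100a10 was called lower in both, at -1.0 ± 0.13 and -0.59 ± 0.14, and Cdh13 higher, at 0.25 ± 0.06 and 0.39 ± 0.06. Of 7 subplate markers tested, 1 was called in each direction in F-cKO, and 3 higher and 1 lower in M-cKO, with Ccn2 at -1.20 ± 0.23 and -1.20 ± 0.20 and Nxph4 at 0.46 ± 0.15 and 0.72 ± 0.12. The subplate genes Nr4a2 and Ccn2 were thus lower in cortices where Nxph4 was higher. The summed level of the layer VI markers was 236 to 247 FPKM over the Ctrl libraries, 219 to 252 over those of F-cKO and 227 to 254 over those of M-cKO. That of the layer V markers was 79.5 to 90.7 FPKM in Ctrl, 59.0 to 68.9 in F-cKO, below Ctrl without overlap, and 70.2 to 85.9 in M-cKO. That of the subplate markers was 18.7 to 24.0 FPKM in Ctrl, 23.1 to 28.2 in F-cKO and, above Ctrl without overlap, 29.4 to 32.7 in M-cKO.

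Of 13 regulators and partners of the deep-layer genes, 8 were called higher and 0 lower in F-cKO, where 11.5% and 9.57% of all genes tested were. In M-cKO 5 were called higher and 1 lower, where 15.5% and 14.1% of all genes were, with a median log2 fold change of 0.32 and 0.18 in the 2 knockouts. Like the other lists, this one was drawn up with these differences known, and nothing is read from its shares. Sox4, an SRY-box factor that activates Fezf2, was at 0.78 ± 0.12 and 0.64 ± 0.07. Of 11 upper-layer markers, 1 was called higher and 2 lower in F-cKO and 1 higher and 6 lower in M-cKO. Of 12 general neuronal markers, 1 was called higher and 6 lower in F-cKO and 3 higher and 6 lower in M-cKO, with Nefl at -1.33 ± 0.19 and -1.30 ± 0.13. Of 12 markers of radial glia and intermediate progenitors, 8 were called higher and 2 lower in F-cKO and 5 higher and 2 lower in M-cKO. Their summed level was 956 to 1027 FPKM in Ctrl, 992 to 1021 in F-cKO and, below Ctrl without overlap, 771 to 850 in M-cKO. Fabp7 had the highest level of them, at a mean of 594 FPKM in Ctrl and 306 in M-cKO. Sox2 went the other way, at 48.6 and 91.1.

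The remaining marker lists concern cells that the dissection could carry along. Of 4 thalamic markers tested, 1 was called higher in F-cKO and 2 in M-cKO, with 0 lower, with Lhx9 at 0.82 ± 0.18 and 0.65 ± 0.16. Of 6 Cajal-Retzius markers, 1 was called higher and 2 lower in F-cKO and 3 higher and 2 lower in M-cKO. Of 10 markers of vessels and meninges, 5 were called lower in F-cKO and 0 of either direction in M-cKO, and their summed level was 58.3 to 69.9 FPKM over the Ctrl libraries, 39.0 to 47.7 over those of F-cKO and 45.3 to 79.7 over those of M-cKO. Of 10 erythroid and microglial markers, 1 was called higher and 1 lower in F-cKO and 1 higher in M-cKO. The part of these cells in the values of the 10 genes was not tested.

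The knockouts also differed from each other in RNA. In M-cKO against F-cKO, fitted directly over 16802 genes, Fezf2 was called higher and Sox5, Tle4, Crym, Ldb2 and Zfpm2 lower, that is 1 and 5 of the 10 genes, where 13.1% of all genes were called higher and 14.3% lower. Ldb2 was at -0.52 ± 0.07 and Crym at -0.75 ± 0.18 on the log2 scale. Sox5 was at -0.34 ± 0.08, so that its rise was smaller in M-cKO than in F-cKO. Zfpm2 at -0.42 ± 0.10 and Tle4 at -0.31 ± 0.08 were above Ctrl in F-cKO and below it in M-cKO by their means, neither being called against Ctrl. Fezf2 was at 0.17 ± 0.06, and this call (Benjamini-Hochberg adjusted p = 0.0456 in the edgeR quasi-likelihood test) was lost without any 1 of the 6 libraries, where the adjusted p was 0.0597 to 0.0995 and the log2 fold change 0.17 to 0.20. It was also lost without the filter on low counts and with all 9 libraries in the edgeR fit (Benjamini-Hochberg adjusted p = 0.0647 and 0.0614). The count of 6 fell to 3 without F-cKO replicate 2 and to 2 without M-cKO replicate 2, where Sox5 and Ldb2 were left (Tle4, Crym and Zfpm2 at -0.29, -0.63 and -0.32). Without F-cKO replicate 1 or M-cKO replicate 3, Tle4 was lost as well, at -0.26 and -0.23, and Bcl11b was gained, at 0.26 and 0.28. Tbr1, Bcl11b, Foxp2 and Nr4a2 were at -0.12 ± 0.06, 0.20 ± 0.08, 0.10 ± 0.17 and -0.08 ± 0.11, and did not pass, though Bcl11b passed in DESeq2 and without the filter in edgeR (Benjamini-Hochberg adjusted p = 0.0440 and 0.0337).

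**Figure D2:**
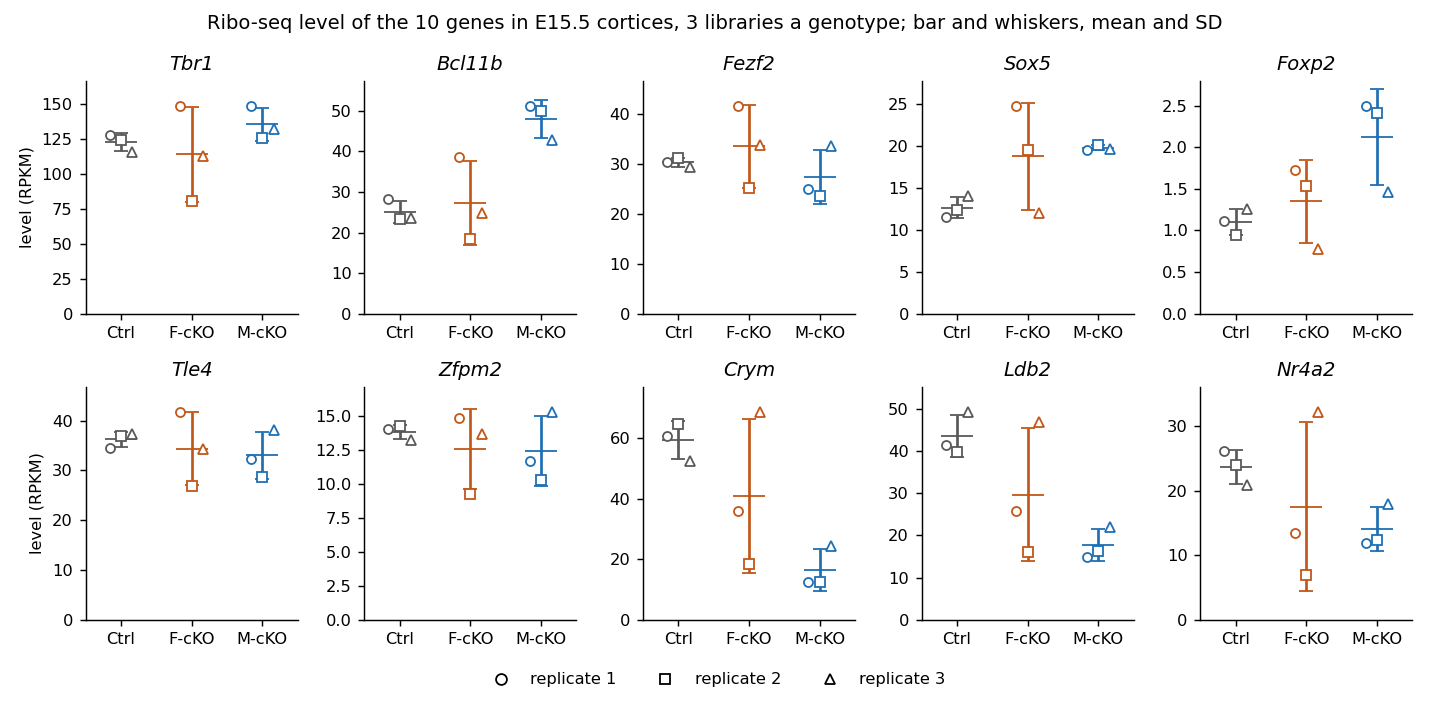
Ribo-seq level of each of the 10 genes in RPKM (vertical axis from 0) for Ctrl, F-cKO and M-cKO, with 1 symbol per library and the mean and SD of 3 libraries as a bar with whiskers. The F-cKO libraries are widely spread, with replicate 3 highest and replicate 2 lowest for Crym, Ldb2 and Nr4a2, while M-cKO lies above Ctrl for Bcl11b, Sox5 and Foxp2 and below it for Crym, Ldb2 and Nr4a2. By counts scaled to library size, 19.9% of 14326 genes had all M-cKO libraries above all Ctrl libraries and 19% had all below.

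Footprints answer whether the RNA differences were also seen on ribosomes. In M-cKO compared to Ctrl, 3 of the 10 genes were called higher (Bcl11b, Sox5 and Foxp2) and 3 lower (Crym, Ldb2 and Nr4a2) in Ribo-seq, where 7.13% of 14314 genes were called higher and 7.5% lower. Tbr1 and Fezf2, called higher in RNA, were not called in footprints. The count of 6 fell to 0 when all 9 Ribo-seq libraries shared one estimate of the spread, with like fold changes. Calls over all genes fell likewise in that fit, from 2093 of 14314 to 35 of 14326. The count of 6 fell to 3 without Ctrl replicate 1, leaving Bcl11b, Crym and Ldb2, and to 2 without Ctrl replicate 2, leaving Crym and Ldb2.

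Bcl11b footprints were at 28.2, 23.4 and 23.7 RPKM in Ctrl and 51.2, 50.0 and 42.7 in M-cKO, a log2 fold change of 0.95 ± 0.12. Sox5 was at 11.6, 12.4 and 14.1 RPKM in Ctrl and 19.6, 20.2 and 19.7 in M-cKO, a log2 fold change of 0.66 ± 0.10. Both genes were apart from Ctrl in all 3 M-cKO libraries, and their footprints rose by about as much as their RNA. Foxp2 was at 1.11, 0.945 and 1.26 RPKM in Ctrl and 2.5, 2.41 and 1.46 in M-cKO, a log2 fold change of 0.96 ± 0.23. Its M-cKO replicate 3 was again the lowest and close to Ctrl. The summed striatal markers were at 79.1 to 103 RPKM in Ctrl and at 191, 198 and 98.4 in M-cKO replicates 1, 2 and 3, so replicate 3 was the lowest in these markers too. Of 17 striatal markers tested, 8 were called higher and 1 lower, where 7.13% and 7.5% of all genes tested were. This list was drawn up with the differences known, and nothing is read from its shares.

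Crym footprints were at 60.6, 64.8 and 52.6 RPKM in Ctrl and 12.3, 12.4 and 24.3 in M-cKO, a log2 fold change of -1.85 ± 0.26. Ldb2 was at 41.5, 39.8 and 49.2 RPKM in Ctrl and 14.9, 16.4 and 22.1 in M-cKO, a log2 fold change of -1.28 ± 0.16. For both, M-cKO replicate 3 was the highest of its group and still well below Ctrl. Nr4a2 was at 26.2, 23.9 and 20.9 RPKM in Ctrl and 11.9, 12.4 and 18 in M-cKO, a log2 fold change of -0.74 ± 0.17. By the edgeR quasi-likelihood test, the Foxp2 and Nr4a2 calls were each lost without any 1 of Ctrl replicates 1, 2 and 3 and M-cKO replicates 1 and 2, where the Benjamini-Hochberg adjusted p was 0.0678 to 0.132 for Foxp2, with a log2 fold change of 0.84 to 1.08, and 0.0666 to 0.110 for Nr4a2, at -0.80 to -0.60.

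Tbr1 footprints were at 128, 124 and 116 RPKM in Ctrl and 149, 126 and 132 in M-cKO, and the log2 fold change was 0.15 ± 0.09. The groups overlapped in RPKM but not in CPM (counts scaled to library size by TMM), at 524 to 576 in Ctrl and 600 to 669 in M-cKO. Fezf2 footprints were at 30.5, 31.2 and 29.4 RPKM in Ctrl and 25, 23.6 and 33.7 in M-cKO, a log2 fold change of -0.14 ± 0.13. In M-cKO replicates 1 and 2, Fezf2 footprints were thus below every Ctrl library, while Fezf2 RNA was above every Ctrl library in all 3 M-cKO libraries. Tle4 was at 34.6, 36.9 and 37.4 RPKM in Ctrl and 32.2, 28.8 and 38.2 in M-cKO, and Zfpm2 at 14.0, 14.2 and 13.2 in Ctrl and 11.7, 10.3 and 15.3 in M-cKO. Neither was called, at -0.12 ± 0.10 and -0.15 ± 0.13, and in both M-cKO replicate 3 was above Ctrl and replicates 1 and 2 below.

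In F-cKO compared to Ctrl, 0 of the 10 genes were called in Ribo-seq, and 0% of 14335 genes were called higher and 0% lower by edgeR, where 318 genes had an unadjusted p below 0.05 and DESeq2 called 6. None of the 10 genes was among those 318. Crym was at 36, 18.3 and 68.6 RPKM in F-cKO replicates 1, 2 and 3, Ldb2 at 25.9, 16.2 and 46.9, and Nr4a2 at 13.5, 6.94 and 32.2. In all 3 genes, replicates 1 and 2 were below the Ctrl range, as RNA was in F-cKO, and replicate 3 was within it or above it. Sox5 was at 24.8, 19.5 and 12 RPKM, so replicates 1 and 2 were above Ctrl and replicate 3 within its range, and Foxp2 was at 1.73, 1.54 and 0.781, with replicate 3 below Ctrl. Tbr1 was at 149, 80.5 and 113 RPKM, Bcl11b at 38.7, 18.4 and 24.8, and Fezf2 at 41.7, 25.2 and 33.8. For these 3, replicate 1 was above Ctrl and replicate 2 below it. Tle4 was at 41.7, 27.0 and 34.4 and Zfpm2 at 14.8, 9.23 and 13.7 RPKM, again with replicate 2 the lowest. The log2 fold changes ran from -0.53 ± 0.34 for Ldb2 to 0.62 ± 0.27 for Sox5. The SE of the 10 genes was 0.14 to 0.48, against 0.06 to 0.15 in RNA-seq, and the lack of calls under this spread does not show that their footprints did not differ.

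Without F-cKO replicate 3, the library close to Ctrl, and without F-cKO replicate 2, the library that stood apart, the count of called genes was likewise 0. M-cKO against F-cKO in Ribo-seq also called 0 of the 10 genes, with 0% of 14262 genes called in either direction, 1154 at an unadjusted p below 0.05 and 200 called by DESeq2. Bcl11b and Crym were the members among those 1154, at 0.83 ± 0.24 and -1.31 ± 0.48 on the log2 scale.

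**Figure D3:**
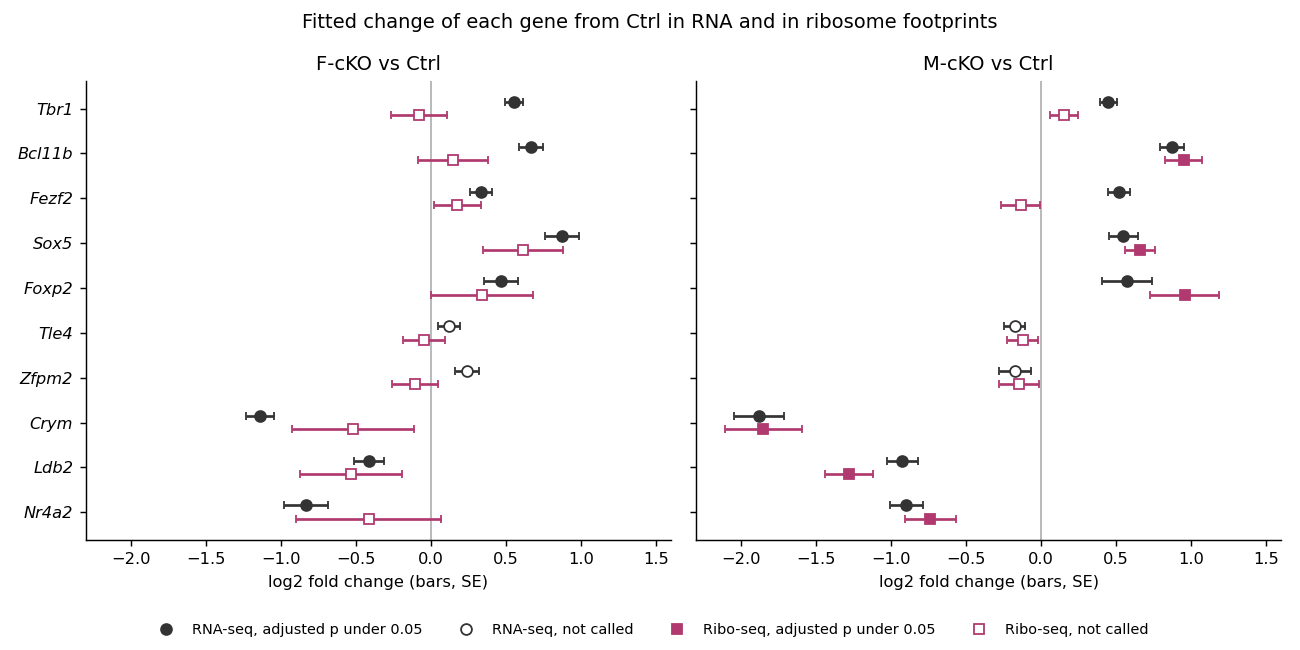
Fitted log2 fold change (horizontal axis) of each gene from Ctrl in F-cKO (left) and M-cKO (right), for RNA-seq (circles) and Ribo-seq (squares), with bars of 1 SE and filled symbols where the adjusted p was below 0.05. RNA and footprints lie close for Bcl11b, Sox5 and Crym in M-cKO and apart for Tbr1 and Fezf2, where footprints sit nearer to 0, and the F-cKO footprints carry the widest bars.

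Whether footprints changed more or less than RNA is asked by TE, tested as the interaction of assay and genotype. In Ctrl, TE as the ratio of mean RPKM to mean FPKM was 3.86 for Zfpm2, 2.90 for Tbr1 and 2.31 for Crym, which placed them at percentiles 97.8, 94.6 and 89.7 of 12952 genes with a median of 0.757. Fezf2 had the lowest TE of the 10 genes at 0.505, or percentile 38.1, although its RNA was the most abundant. Bcl11b was at 0.843, Foxp2 at 1.01, Sox5 at 1.05, Nr4a2 at 1.46, Tle4 at 1.51 and Ldb2 at 1.88. The gene lengths used may differ between the assays, so these TE levels, their order and the percentiles depend on them.

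In M-cKO compared to Ctrl, 0 of the 10 genes were called for TE, where 1.89% of 13208 genes were called higher and 1.18% lower. At an unadjusted p below 0.05 there were 2841 of all 13208 genes in either direction, and 2 of the 10, Fezf2 and Tbr1, both lower. The TE of Fezf2 was 0.317 in M-cKO against 0.505 in Ctrl, a log2 change of -0.58 ± 0.15 that fell just short of the threshold (Benjamini-Hochberg adjusted p = 0.0528 in the edgeR quasi-likelihood test). Over 19 alternatives its adjusted p in edgeR or DESeq2 ran from 0.00402 to 0.284, and it passed with RLE scaling, with DESeq2 and without Ribo-seq M-cKO replicate 3 (adjusted p = 0.0478, 0.00510 and 0.00402). The TE of Tbr1 was 2.33 against 2.90, at -0.23 ± 0.10 (Benjamini-Hochberg adjusted p = 0.226 in the edgeR quasi-likelihood test). The other 8 genes lay between -0.28 ± 0.20 for Ldb2 and 0.45 ± 0.31 for Foxp2, and for Crym, whose RNA and footprints were both low, the log2 change in TE was 0.10 ± 0.33.

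In F-cKO compared to Ctrl, 0 of the 10 genes were called for TE and 0% of 13225 genes were called higher or lower by edgeR, with 1228 genes at an unadjusted p below 0.05 and 39 called by DESeq2. At an unadjusted p below 0.05 there were 3 of the 10, Tbr1, Bcl11b and Zfpm2, all lower. Tbr1 was at 1.82 against 2.90 in Ctrl, a log2 change of -0.68 ± 0.18 (Benjamini-Hochberg adjusted p = 0.425 in the edgeR quasi-likelihood test). Bcl11b was at 0.574 against 0.843, or -0.57 ± 0.25, and Zfpm2 at 2.95 against 3.86, or -0.39 ± 0.16. These values rest on the F-cKO footprint libraries that did not resemble each other, and by same-numbered libraries the TE of Tbr1 ran from 1.27 to 2.42 in F-cKO and from 2.87 to 2.93 in Ctrl. Whether the spread of those libraries accounts for the difference was not tested.

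**Figure D4:**
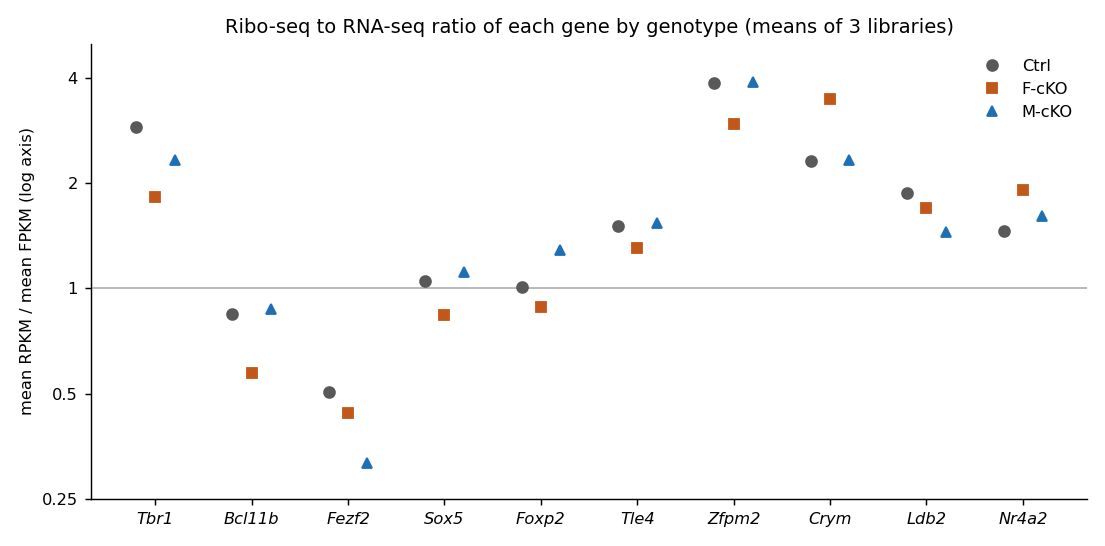
TE of each gene as mean footprint RPKM divided by mean RNA FPKM (vertical axis, logarithmic) in Ctrl, F-cKO and M-cKO, each mean over 3 libraries. Fezf2 is lowest in all 3 genotypes, at 0.505, 0.440 and 0.317, and Tbr1 is at 2.90 in Ctrl, above both F-cKO at 1.82 and M-cKO at 2.33.

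The RNA patterns of the genes were each set beside those of 17376 genes over the 9 RNA-seq libraries, which fall into 3 genotypes, by Pearson's r of log2 CPM. The gene most like Tbr1 was Acvr2b (r = 0.992), that most like Bcl11b was Ankrd50 (0.996) and that most like Fezf2 was Flrt1 (0.995). For Sox5 it was Cyb5d1 (0.997), for Ldb2 Luzp2 (0.992) and for Nr4a2 the neurofilament gene Nefl (0.984). Tle4, Foxp2 and Zfpm2 had Atp2c1 (0.978), Slc39a10 (0.963) and Gm37353 (0.973). None of the 10 genes had another of the 10 as its closest match. These are the highest of many values and describe likeness in these libraries only.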

How the data were processed

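RNA-seq and Ribo-seq of E15.5 cortices were analysed, with 3 libraries per genotype in each assay, grouped by the genotype and assay in the labels. For RNA-seq, the authors aligned reads to mm10 with HISAT2 2.0.5 and deposited counts per gene and FPKM. For Ribo-seq, the authors trimmed adapters, mapped RPFs with TopHat2, counted them with HTSeq and deposited counts and RPKM. The tool that made the RNA-seq counts, the annotation and the use of strand are not given in the sources used here. Symbols, positions and promoters were taken from RefSeq for GRCm38.p6, and 54723 of 55153 identifiers were matched. In the Ribo-seq count table, 40490 genes with blanks were left out, none of them among the 10 genes described.

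Counts were tested in R 4.3.3 with the edgeR 4.0.16 quasi-likelihood test after filterByExpr (minimum count 10, minimum total 15) and TMM scaling, over the 6 libraries of each comparison, with Benjamini-Hochberg adjustment over all genes and a call at an adjusted p below 0.05. TE was tested as the interaction of assay and genotype over 12 libraries, on genes that passed the filter in each assay, since RiboDiff was not run. Levels were taken from the deposited FPKM and RPKM. Alternatives were RLE scaling, DESeq2 1.42.0, no filter, a fit of all libraries, protein-coding genes only, a replicate block and leaving out each library. A joint TE filter was added after the data were seen. Each test was first tried on simulated counts with known changes.

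The 10 genes and all gene lists were chosen with earlier results of these data known. The genes named are those 10, the targeted genes, for each list those among the 2 or 3 smallest adjusted p in a comparison, and the gene most like each of the 10, save a few that are not reported here. The labels call the libraries biological repeats. Whether those of a genotype come from separate embryos or litters is not clear from the sources used here, so p-values measure only the spread between libraries, and litter and genotype cannot be told apart. Precision is limited by the 3 libraries a group and by the counts per gene.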

Additional observations from a re-analysis of the deposited data

Results flagged for a closer look

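The effects of both knockouts on RNA differed from each other for 6 of the 10 genes, by the direct edgeR test of M-cKO against F-cKO, where 13.1% of all genes were called higher and 14.3% lower. The count was 3 without F-cKO replicate 2 and 2 without M-cKO replicate 2. On the log2 scale, Fezf2 was 0.17 higher in M-cKO, a call that was lost without any 1 of the 6 libraries (edgeR, Benjamini-Hochberg adjusted p = 0.0597 to 0.0995), and Sox5 was at -0.34, Tle4 at -0.31, Crym at -0.75, Ldb2 at -0.52 and Zfpm2 at -0.42. Crym and Ldb2 were below Ctrl in both knockouts and lower in M-cKO. Tle4 and Zfpm2 had means on opposite sides of Ctrl. Dixon's test was not applied, since groups hold 3 libraries.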

How the results depend on the processing

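Of 107 recomputed counts of called genes, 98 stayed within 1.5 times the reported count and 9 did not. In Ribo-seq M-cKO the count of 6 became 0 when all 9 libraries were fitted together, where calls over all genes fell from 2093 to 35. For TE in M-cKO the count of 0 became 1, Fezf2, under RLE scaling and under DESeq2. Leaving out 1 library gave counts of 5 to 8 for RNA-seq F-cKO (5 without F-cKO replicate 2), 7 to 8 for RNA-seq M-cKO, 2 to 5 for RNA-seq M-cKO against F-cKO, 2 to 6 for Ribo-seq M-cKO and 0 to 1 for TE in M-cKO, and 0 throughout for Ribo-seq F-cKO, Ribo-seq M-cKO against F-cKO and TE in F-cKO. Of 1070 recomputed log2 fold changes, 989 kept their direction and side of the threshold, 50 lost and 8 gained a call, and 23 changed sign. The cause was not tested, except that fits without a library hold fewer samples.

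The sign changes all came from leaving out 1 library, among values that had not been called. The ranges were -0.031 to 0.31 for Foxp2 and -0.20 to 0.019 for Nr4a2 in RNA-seq M-cKO against F-cKO. In Ribo-seq F-cKO they were -0.14 to 0.31 for Bcl11b, -0.26 to 0.065 for Tbr1, -0.16 to 0.043 for Tle4 and -0.19 to 0.018 for Zfpm2. In Ribo-seq M-cKO against F-cKO they were -0.65 to 0.42 for Nr4a2, -0.23 to 0.25 for Sox5, -0.16 to 0.056 for Tle4 and -0.18 to 0.079 for Zfpm2. For TE in F-cKO they were -0.39 to 0.10 for Foxp2, -0.64 to 0.14 for Ldb2 and -0.38 to 0.77 for Nr4a2, and in M-cKO -0.31 to 0.40 for Crym, -0.0099 to 0.18 for Tle4 and -0.094 to 0.20 for Zfpm2.

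Same-numbered libraries did not deviate together, with correlations of -0.28 to 0.16, and in no pair of genotypes did all 6 libraries correlate best with their own number, so the numbers were not taken as pairs. With the replicate block the counts were 7, 8 and 5 in the 3 RNA-seq comparisons (F-cKO, M-cKO and M-cKO against F-cKO), 0, 4 and 0 in Ribo-seq and 0 for TE in both knockouts. The calls lost under the block in edgeR were Foxp2 in RNA-seq F-cKO (Benjamini-Hochberg adjusted p = 0.0510), Fezf2 in RNA-seq M-cKO against F-cKO (0.0744) and Foxp2 and Nr4a2 in Ribo-seq M-cKO (0.0656 and 0.0552). Of 70 recomputed levels, 69 moved by less than the SD of the libraries, the exception being the Ribo-seq ratio of Sox5 in M-cKO to Ctrl, at 0.68 on the log2 scale by CPM.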
